A study of Mus musculus with 8 samples.

Results

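Thbd and Cd93 are neighbouring genes of mouse chromosome 2 that were chosen by their measured levels in these lymphoma cells, since both were lower after the BET inhibitor JQ1. They are 2 of the 43629 genes counted, found by matching Ensembl identifiers to symbols, and both were among the 12413 genes that passed the expression filter. Since the fall after JQ1 chose the pair, its size is described here without a test. Only measures that the choice did not use, such as the difference between the cell lines, were tested.

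RNA was sequenced from 2 B cell lymphoma lines, #1.1 and #1.2, of Eμ-Myc mice on the C57BL/6 strain, which carry a Myc transgene driven in the B lineage by the immunoglobulin heavy chain enhancer. Early passage cells of each line spent 2 h in 250 nM JQ1, a small molecule that displaces BET proteins from acetylated chromatin, or in its solvent DMSO. This gave 4 groups of 2 libraries: line 1.1 in DMSO, line 1.1 in JQ1, line 1.2 in DMSO and line 1.2 in JQ1. The labels do not say that the 2 libraries of a group were separate cultures, so every p-value rests on library-to-library spread alone, which may be technical. Each library held between 10347453 and 13049877 reads on genes, and levels are in CPM (read counts scaled to equal library size) after edgeR's TMM scaling.

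Thrombomodulin, the product of Thbd, is a cell surface receptor for thrombin. Bound to it, thrombin stops clotting fibrinogen and instead activates protein C, an anticoagulant, which makes thrombomodulin a brake on coagulation best known from endothelium. The product of Cd93, also called AA4.1 in the mouse, is a surface receptor of endothelial, myeloid and early haematopoietic cells and a standard marker of B cell progenitors and immature B cells. Both belong to a small family of C-type lectin-like membrane proteins, together with Cd248 and Clec14a, built from a lectin-like domain, EGF-like repeats, a mucin-like stretch, a membrane span and a short tail.

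In the GRCm38 build, Thbd (ENSMUSG00000074743) lies at chr2:148404466-148408188 and Cd93 (ENSMUSG00000027435) at chr2:148436640-148443563, both on the minus strand. GENCODE M21 gives Thbd 1 transcript of 1 exon and 3723 bases, and Cd93 1 transcript of 2 exons and 6677 bases. A stretch of 28451 bp separates the genes. It holds only a processed pseudogene, Gm14119, with 1 read over all 8 libraries, and no annotated gene overlaps Thbd or Cd93 on either strand.

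Thbd was a well expressed gene in DMSO and a weak one after JQ1. In line 1.1 the DMSO libraries held 1244 and 845 Thbd reads, or 94.5 and 80.8 CPM, and the JQ1 libraries 36 and 44 reads, or 2.97 and 4.01 CPM. In line 1.2 the DMSO libraries held 1129 and 1238 reads, or 101.9 and 102.5 CPM, and the JQ1 libraries 85 and 71 reads, or 7.48 and 6.29 CPM. The JQ1 and DMSO libraries did not overlap in either line, which is a description only, since the fall chose the pair. The share of all genes without overlap was not counted. Of the DMSO level, JQ1 libraries kept 3.15 to 4.97% in line 1.1 and 6.14 to 7.34% in line 1.2, over the 4 pairings of libraries in each line. In bulk RNA, fewer cells that express a gene and less of its RNA per cell cannot be told apart.

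Averaged over the lines, the log2 fold change of Thbd was -4.27 ± 0.081 (standard error, SE), a 19.4-fold lower level, and only 0.0564% of the genes tested had a lower value. It was -4.66 ± 0.12 in line 1.1 and -3.89 ± 0.11 in line 1.2. Over all genes the median change was 0.0036, and 31.3% of them were called lower at an adjusted p under 0.05 (edgeR's quasi-likelihood test). This is the contrast that chose the pair, so nothing is read from its place in that background.

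Cd93 was lower by less. In line 1.1 it had 565 and 450 reads in DMSO, or 42.9 and 43.03 CPM, and 224 and 219 reads in JQ1, or 18.5 and 19.97 CPM. In line 1.2 it had 661 and 736 reads in DMSO, or 59.7 and 60.9 CPM, and 288 and 210 reads in JQ1, or 25.4 and 18.6 CPM. Here too the JQ1 and DMSO libraries of a line did not overlap, again a description only. The JQ1 libraries kept 43.01 to 46.5% of the DMSO level in line 1.1 and 30.6 to 42.5% in line 1.2.

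The averaged log2 fold change of Cd93 was -1.31 ± 0.068 (SE), a 2.48-fold lower level, with 3.59% of genes lower still. It was -1.16 ± 0.10 in line 1.1 and -1.46 ± 0.093 in line 1.2. The line 1.2 JQ1 libraries differed from each other by more than counting error: the 95% Poisson interval, which covers counting error only, was 22.5 to 28.5 CPM in replicate 1 and 16.2 to 21.3 CPM in replicate 2. Without replicate 1 the change in line 1.2 was -1.69.

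**Figure D1:**
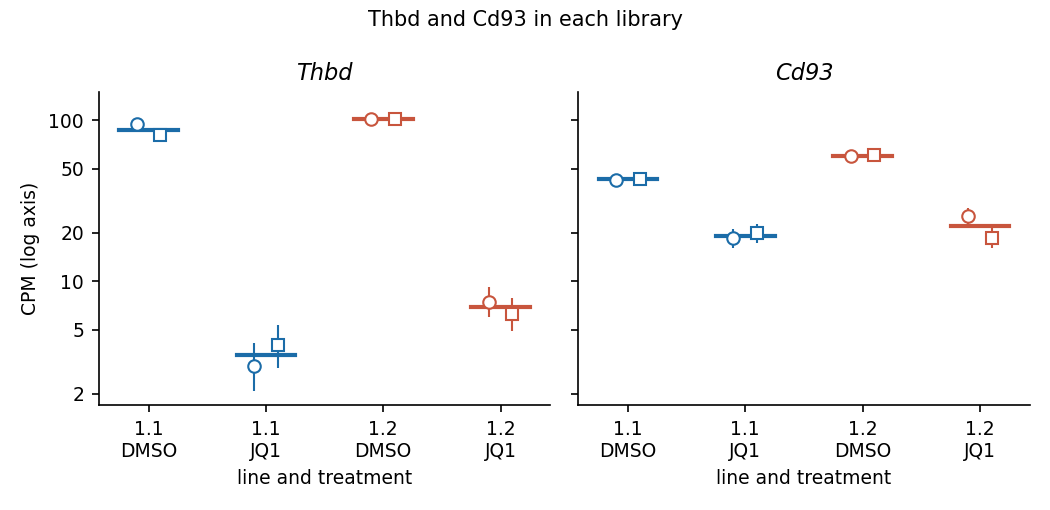
CPM of Thbd and Cd93 (log axis) in each library, by line and treatment. Circles are replicate 1, squares replicate 2, vertical lines exact 95% Poisson intervals of the read count, and horizontal lines the mean of the 2 libraries. Thbd sits between 80.8 and 102.5 CPM in DMSO and between 2.97 and 7.48 CPM in JQ1, while Cd93 sits between 42.9 and 60.9 CPM and between 18.5 and 25.4 CPM.

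The order of the pair turned over with treatment. Per kilobase of exon, Thbd in DMSO was at 23.5 ± 2.6 CPM per kb in line 1.1 and 27.5 ± 0.11 in line 1.2 (SD, n = 2), against 6.44 ± 0.012 and 9.03 ± 0.14 for Cd93. In JQ1, Thbd was at 0.938 ± 0.20 and 1.85 ± 0.23 CPM per kb and Cd93 at 2.88 ± 0.15 and 3.29 ± 0.71. The Thbd level was 3.66 ± 0.41 times that of Cd93 in line 1.1 in DMSO and 3.04 ± 0.033 times in line 1.2, and 0.324 ± 0.051 and 0.568 ± 0.054 times in JQ1 (SD, n = 2). All 4 DMSO libraries had more Thbd than Cd93 per kilobase and all 4 JQ1 libraries had less. Among the 12310 filtered genes with a length, Thbd in line 1.1 went from above 80.4% of genes to above 17.1%, and in line 1.2 from above 83.1% to above 26.04%. Cd93 went from above 49.8% to above 33.6% in line 1.1 and from above 58.4% to above 35.6% in line 1.2.

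**Figure D2:**
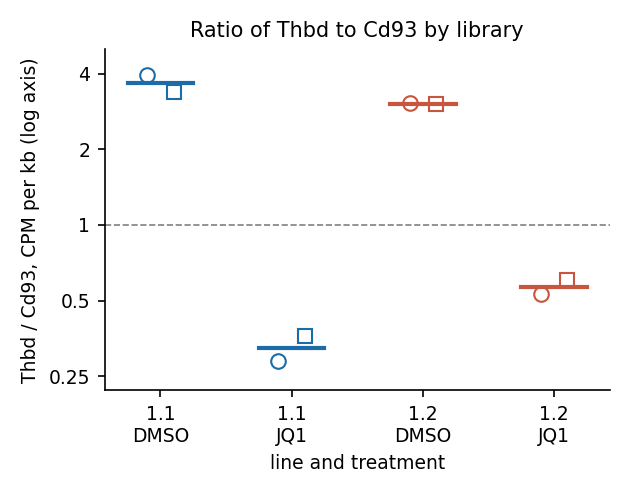
Thbd level divided by Cd93 level, each in CPM per kilobase of exon (log axis), in each library by line and treatment. Circles are replicate 1, squares replicate 2, horizontal lines the mean of 2 libraries, and the dashed line equal levels. The 4 DMSO libraries lie between 3.02 and 3.95 and the 4 JQ1 libraries between 0.288 and 0.606.

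The levels of the lines were compared next, a contrast that the choice of the pair did not use. Cd93 was higher in line 1.2 than in line 1.1 without drug, by 0.49 ± 0.082 on the log2 scale or 1.4-fold (edgeR quasi-likelihood test, adjusted p = 0.000317), and both line 1.2 libraries lay above both line 1.1 libraries. In JQ1 its difference was 0.20 ± 0.11 and did not pass (edgeR, adjusted p = 0.34), and the libraries of the lines overlapped. Without line 1.2 JQ1 replicate 1 that difference was -0.05. Of all genes, 6.77% were called between the lines in DMSO and 6.4% in JQ1. The share of all genes whose libraries did not overlap between the lines was not counted, so the lack of overlap is a description only.

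After JQ1, Thbd was 1.98-fold higher in line 1.2, a log2 difference of 0.99 ± 0.21 (SE, edgeR quasi-likelihood test, adjusted p = 0.00361), and both line 1.2 libraries lay above both line 1.1 libraries. The lack of overlap is again a description only, without the share over all genes. The Thbd difference in JQ1 rests on 36 to 85 reads per library. The call was lost without line 1.1 JQ1 replicate 1 (0.78, edgeR adjusted p = 0.12) and without line 1.2 JQ1 replicate 1 (0.86, adjusted p = 0.0941). In DMSO the difference was 0.22 ± 0.067 and just missed the threshold (edgeR, adjusted p = 0.0544). Without line 1.1 DMSO replicate 1 it was 0.33 and passed (edgeR, adjusted p = 0.000463), and it also passed under 5 other settings.

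Whether JQ1 acted differently on the pair in the 2 lines was tested with the interaction of line and drug, for which 0.113% of all genes were called. For Thbd the JQ1 effect in line 1.2 minus that in line 1.1 was 0.77 ± 0.22 (SE), with an unadjusted p of 0.0018 and an adjusted p of 0.275 in edgeR's quasi-likelihood test. For Cd93 it was -0.29 ± 0.14, with an unadjusted p of 0.0474 and an adjusted p of 0.619. It was -0.54 without line 1.2 JQ1 replicate 1 and -0.10 without line 1.2 JQ1 replicate 2, and passed in neither. Neither passed, so a line-dependent response of either gene was not established. Thbd passed without line 1.1 DMSO replicate 2 (0.88, edgeR adjusted p = 0.0287) and with no filter on low counts (0.79, adjusted p = 0.0441).

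The genes around the pair on chromosome 2 were examined to see how far the lower levels extended. Apart from a small decrease of Cst3, no expressed neighbour was called lower. Within 2 Mb on either side lay 70 other annotated genes, 34 of them protein-coding. Of the 70, 45 had no read in any library and 13 passed the filter. Of these 13, 1 was higher, 1 was lower and 11 were not called, where 62% of all genes were called, and none was lower by 2-fold or more. Their median log2 change was -0.04. Of those not called, Gm14131, Gm10130, Gm14122, Zfp442 and Zfp937 had means of only 0.678 to 2.6 CPM. With SE of 0.18 to 0.41, only large changes in them could be called. The others not called had means of 8.38 to 305 CPM and SE of 0.032 to 0.11.

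The nearest protein-coding gene beyond Thbd, Sstr4, a somatostatin receptor gene on the opposite strand 7699 bp away, had 2 reads over all libraries. Foxa2, a transcription factor gene of endoderm 357497 bp away on that side, had 0 reads. The nearest expressed gene on the Thbd side was Xrn2, which encodes a nuclear exonuclease of transcription termination, 1326466 bp away. It was at 317 ± 8.1 CPM in DMSO and 304 ± 1.4 CPM in JQ1 in line 1.1, and at 306 ± 8.03 and 291 ± 7.8 CPM in line 1.2 (SD, n = 2). Averaged over the lines, its log2 change of -0.07 ± 0.032 did not pass (edgeR, adjusted p = 0.0789), and it passed without line 1.1 DMSO replicate 1 (-0.08, adjusted p = 0.0125). It also passed with upper quartile scaling (-0.08, edgeR adjusted p = 0.0265), library totals (-0.11, adjusted p = 0.00464) and a filter of at least 5 CPM in 2 libraries (-0.07, adjusted p = 0.0493).

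On the Cd93 side the nearest expressed genes were Nxt1, a cofactor of mRNA export 229038 bp away, and Gzf1, a zinc finger gene 237460 bp away. Nxt1 was at 40.9 ± 0.62 and 43.3 ± 2.4 CPM in line 1.1 and at 40.3 ± 0.11 and 42.6 ± 2.3 CPM in line 1.2, in DMSO and JQ1 (SD, n = 2). Its averaged log2 change was 0.08 ± 0.052 and that of Gzf1 0.016 ± 0.072, and neither passed. The gene called lower was Cst3, which encodes the protease inhibitor cystatin C, 428159 bp away, at -0.23 ± 0.033 (SE, edgeR adjusted p = 2.13e-06). The gene called higher was Ralgapa2, which encodes a GTPase-activating subunit for Ral proteins, at 0.28 ± 0.052 (edgeR adjusted p = 5.16e-05). Kiz, a centrosomal gene, was at -0.04, and the other 7 genes (Gm14131, Zfp120, Zfp937, Gm21994, Gm10130, Gm14122 and Zfp442) lay between -0.43 and 0.55, with none called.

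**Figure D3:**
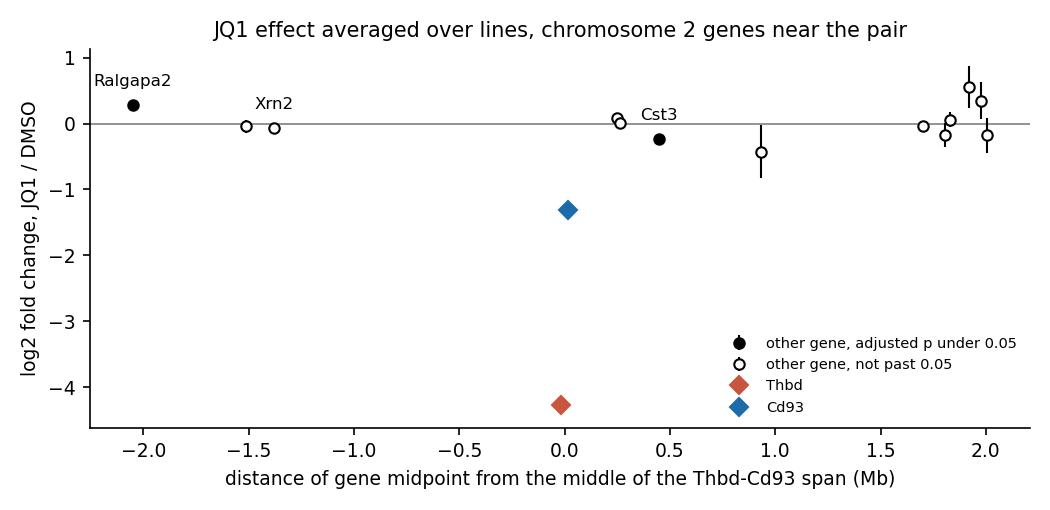
Log2 fold change of JQ1 over DMSO, averaged over the lines, against the distance in Mb of each expressed gene's midpoint from the middle of the Thbd and Cd93 span. Vertical lines are SE, filled circles passed an adjusted p of 0.05 and open circles did not. Thbd (-4.27) and Cd93 (-1.31) lie below the 13 other genes, which stay between -0.43 and 0.55.

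Pairs of neighbouring genes that were both lower were counted beside single genes, of which 31.3% were called lower among all genes tested. Among 6602 pairs of adjacent protein-coding genes with both genes tested, 807 pairs (12.2%) had both called lower and 48 (0.727%) had both lower by at least 2-fold. On 1 strand, as here, 348 of 2931 pairs (11.9%) had both called lower. Whether neighbours were both lower more often than unrelated genes was not tested. Ranked by the sum of the 2 log2 changes, Thbd and Cd93 were number 2 of the 48, after Cd180 (-3.81) and Mast4 (-2.46). The annotated spans of Cd180 and Mast4 overlap on opposite strands. Whether their exons overlap was not checked, and the strand setting of the counting was not stated. The recombinase genes Rag2 (-2.61) and Rag1 (-2.65) were the fifth of the 48. The gap of 28451 bp within the Thbd and Cd93 pair was wider than 79.3% of the gaps between adjacent pairs, whose median was 5114 bp. The place of the pair in this ranking follows from its choice and is a description only.

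**Figure D4:**
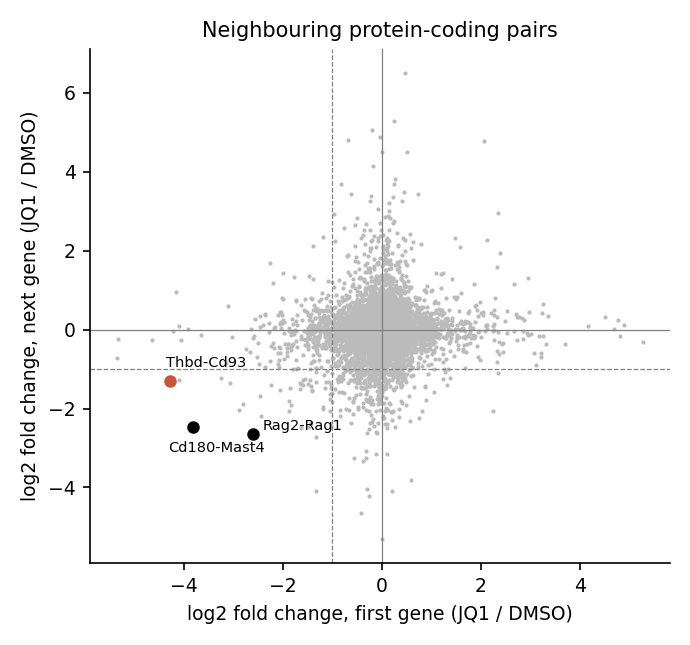
Log2 fold changes of JQ1 over DMSO, averaged over the lines, for 6602 adjacent pairs of tested protein-coding genes, with the gene at the lower coordinate on the horizontal axis. Dashed lines mark 2-fold lower. Thbd and Cd93 (red) lie at -4.27 and -1.31, away from the diagonal on which Rag2 and Rag1 (-2.61 and -2.65) lie.

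Genes with the most similar profile were found by the root mean square distance between log2 CPM values over the 8 libraries, each gene centred on its own mean and with a prior count of 2, among 8380 other protein-coding genes with at least 5 CPM on average. The distance between Thbd and Cd93 was 1.49, which made Cd93 number 142 in the ranking from Thbd and Thbd number 8342 in the ranking from Cd93. Since the libraries span DMSO and JQ1, the distance largely carries the size of the JQ1 change, which chose the pair. These ranks and the nearest genes are therefore a description only. The nearest to Thbd were Sla, which encodes an adaptor that restrains signalling from antigen receptors (0.353), the interleukin-7 receptor gene Il7r (0.477), and the receptor genes Gpr18 (0.591), Lgr5 (0.629) and Cysltr1 (0.685). In DMSO, Sla was at 10.9 ± 0.88 CPM in line 1.1 and 18.8 ± 2.7 CPM in line 1.2, and in JQ1 at 0.219 ± 0.077 and 1.06 ± 0.37 CPM (SD, n = 2). Its JQ1 effect did not pass a test for a difference between the lines (edgeR interaction, adjusted p = 0.584).

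The 4 genes nearest to Cd93 were closer to it, at 0.128 to 0.144. They were St6gal1, which encodes the sialyltransferase that makes CD22 ligands, the DNA repair gene Apex2, Pik3cg, which encodes a catalytic subunit of PI3 kinase, and Xndc1. In DMSO, St6gal1 was at 88.4 ± 3.2 CPM in line 1.1 and 106 ± 1.1 CPM in line 1.2, and in JQ1 at 39.4 ± 1.2 and 41.6 ± 1.7 CPM (SD, n = 2). None of the named genes nearest to Thbd or Cd93 lies on chromosome 2.

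Most genes of the protein C system, in which thrombomodulin works, had no reads in these cells. Of 10 genes of the protein C system, 6 had 0 reads in all 8 libraries: Proc (protein C itself), its endothelial receptor gene Procr, Pros1 (protein S), Serpina5, Cpb2 and Gas6. With 0 reads, a level up to the value of 3 reads remains possible, which was 0.228 to 0.287 CPM depending on the library, for counting error alone. The thrombin gene F2 had at most 3 reads in a library and F5 at most 2. Hmgb1, a nuclear protein that the lectin-like domain of thrombomodulin binds outside cells, was at 407 and 428 CPM in line 1.1 and at 413 and 372 CPM in line 1.2, in DMSO and JQ1. Neither Hmgb1 (-0.04) nor F8 (0.49), the clotting factor VIII gene, was called. Hmgb1 was called without line 1.1 DMSO replicate 2 (-0.08, edgeR adjusted p = 0.0139) and F8 without line 1.2 JQ1 replicate 1 (0.72, adjusted p = 0.0202).

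The thrombin receptor genes F2r, F2rl2 and F2rl3 and their relative F2rl1, whose product is not a thrombin receptor, did not pass the filter. They had at most 7 reads in a library. Of 18 other clotting and fibrinolysis genes, 8 had 0 reads, among them the tissue factor gene F3 and the plasminogen activator gene Plat. The 2 that passed the filter, Serpine2 (0.15 ± 0.24) and Serpinc1 (0.12 ± 0.28), were not called. Plaur, the urokinase receptor gene, had at most 12 reads in a library and did not pass the filter. With 1 library left out the filter admitted more genes, and the log2 change of Plaur was -4.15 to -1.81 in the fits that called it. Such a filter can admit a gene through 1 library of the group where it is high, and the fits share most libraries. Nothing is therefore read from these values.

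The other family members were not expressed either. Clec14a had 0 reads and Cd248 at most 1 read in a library. Among 14 other family members and reported CD93 partners, 9 had 0 reads, including the endothelial matrix ligand gene Mmrn2, Igfbp7 and the 3 C1q chains C1qa, C1qb and C1qc. Of the 4 expressed, 2 rose, 1 fell and 1 was not called, with a median of 0.26, where 62% of all genes were called. Gipc1, whose product binds the CD93 tail, rose by 0.55 ± 0.049 and Calr, a chaperone that also binds C1q, by 0.51 ± 0.032. C1qbp fell by 0.096 ± 0.033, a call lost without line 1.1 JQ1 replicate 1 (-0.09), line 1.2 DMSO replicate 1 (-0.08) or line 1.2 JQ1 replicate 2 (-0.08). Msn, which encodes the membrane-cytoskeleton linker moesin, was not called, at 0.0007 ± 0.033.

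Lectin-like receptors of other families changed in both directions. Of 16 genes, 5 were expressed, of which 4 fell and 1 rose, against 31.3 and 30.7% of all genes. Cd72, an inhibitory coreceptor of B cells, fell by 1.19 ± 0.04, Clec2d by 1.81 ± 0.093 and Mrc1 by 1.81 ± 0.23. Clec2i rose by 2.11 ± 0.12, with 3.22 and 4.75 CPM in lines 1.1 and 1.2 in DMSO and 18.4 and 15.3 CPM in JQ1.

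Transcription factors that act on the THBD gene in endothelial and other cells were lower, higher or not called. Of 15, 11 passed the filter, 6 fell, 1 rose and 4 were not called, with a median of -0.22, where 62% of all genes were called, 31.3% lower and 30.7% higher. Mef2c, a factor of B cells and endothelium upstream of the KLF factors, fell by 1.43 ± 0.044. Klf2, an activator of THBD under blood flow, fell by 0.74 ± 0.061, with 64.6 and 61.4 CPM in lines 1.1 and 1.2 in DMSO and 32.02 and 44.04 CPM in JQ1. Rara, a retinoic acid receptor, fell by 0.65 ± 0.096 and Nfkb1, of a family that represses THBD in inflamed endothelium, by 0.64 ± 0.041. Rela, of the same family and named after its value was seen, was the gene that rose, by 0.13 ± 0.048 (edgeR, adjusted p = 0.024). Rxrb (-0.22) and Mef2a (-0.23) fell by less. Klf4 did not pass the filter, with at most 10 reads in a library. The JQ1 effect on Klf2 did not pass a test for a difference between lines (edgeR interaction, adjusted p = 0.117), the lowest of the 59 genes named by rule.

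Genes of the B cell stages that Cd93 helps to define were mostly lower too. Of 19 early B lineage genes 13 were expressed, of which 12 fell and 0 rose, with a median of -0.79, against 31.3% lower and 30.7% higher among all genes. The changes were -4.09 ± 0.067 for Il7r, -2.65 ± 0.058 for Rag1, -2.61 ± 0.11 for Rag2, -1.52 ± 0.056 for Spn (CD43), -0.85 ± 0.032 for the receptor chain gene Cd79b and -0.79 ± 0.046 for the lineage factor gene Pax5. Levels of the early genes were mixed. Kit (0 reads), Dntt, Vpreb1, Vpreb2, Igll1 and Enpep did not pass the filter, with at most 7 reads in a library. In DMSO in lines 1.1 and 1.2, Il7r was at 119.7 and 92.1 CPM and Rag1 at 115 and 53.9 CPM. Rag2 was at 27.1 and 20.8 CPM there and Spn at 71.9 and 57.5 CPM. Cd79a and Cd24a were between 342 and 2191 CPM in every group. Of 10 genes of later B cells 8 were expressed, of which 6 fell and 2 rose, with a median of -0.90, beside the same shares of all genes (31.3% lower, 30.7% higher). Cd38 fell by 2.49 ± 0.061, Cd55 by 1.85 ± 0.11 and Cd22 by 1.59 ± 0.043, and the heavy chain genes Ighd (1.71 ± 0.082) and Ighm (0.19 ± 0.029) rose. The change of Cd93 (-1.31) lay between those of Pax5 and Spn.

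**Figure D5:**
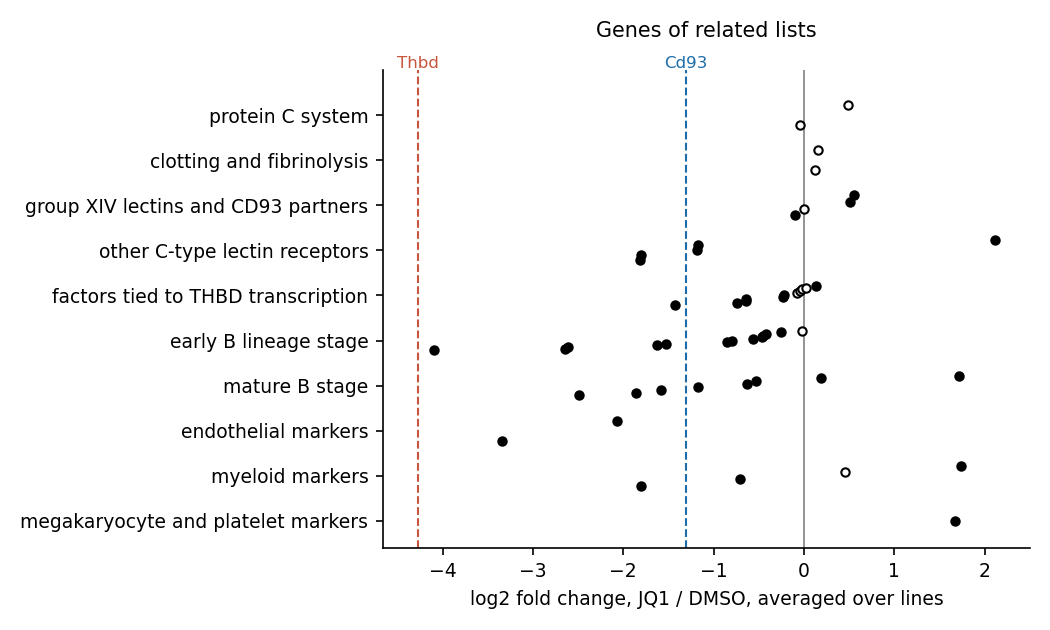
Log2 fold change of JQ1 over DMSO, averaged over the lines, for each expressed gene of 10 lists. Filled circles passed an adjusted p of 0.05, open circles did not, and dashed lines mark Thbd (-4.27) and Cd93 (-1.31). No listed gene lies as low as Thbd, and Il7r (-4.09) comes nearest.

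Since Thbd and Cd93 are also markers of endothelial and myeloid cells, other markers of these cells were read beside them. Of 13 endothelial markers, 5 had 0 reads in all libraries (Kdr, Flt1, Emcn, Cldn5 and Robo4), and 2 passed the filter and fell. Among all genes tested, 31.3% were called lower. Pecam1, an adhesion receptor that B cells also carry, fell by 2.07 ± 0.056, with 91.7 and 86.8 CPM in lines 1.1 and 1.2 in DMSO and 23.2 and 19.5 CPM in JQ1. Cdh5, the VE-cadherin gene, was at 1.26 and 1.47 CPM in DMSO and 0.0912 and 0.176 CPM in JQ1, a log2 change of -3.35 ± 0.50. No JQ1 library held more than 0.352 CPM of Cdh5. It passed the filter through its DMSO libraries only, which favours a fall, so its call is a description only. Without Pecam1 the markers summed to 1.82 to 2.48 CPM in the DMSO libraries and 0.621 to 2.29 CPM in the JQ1 libraries, while Thbd was at 80.8 CPM or more in each DMSO library. The part of other cells in the result was not tested.

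Of 14 myeloid markers, 4 had 0 reads (Lyz2, Elane, S100a8 and S100a9) and 4 passed the filter, of which Cd68 rose (1.74) and Mrc1 (-1.81) and Itgam (-0.70) fell. For these and the platelet markers below, the shares of all genes were 31.3% lower and 30.7% higher. The call on Itgam was lost with DESeq2 (adjusted p = 0.204) and without any 1 of 6 libraries (all but line 1.1 DMSO replicate 2 and line 1.2 JQ1 replicate 1). The summed level of the 14 was 8.2 to 10.9 CPM in DMSO and 13.9 to 17 CPM in JQ1. Without Cd68, a sum added after seeing the data, it was 5.85 to 6.88 CPM in DMSO and 3.3 to 4.01 CPM in JQ1 in line 1.1, and 7.22 to 7.37 and 5.41 to 6.95 CPM in line 1.2. With Cd68 the sum was higher in JQ1 and without it lower in both lines, so its direction rested on that gene. Among the markers left, Mrc1 had DMSO means of 4.09 (line 1.1) and 2.77 CPM (line 1.2), against JQ1 means of 1.13 and 0.80. Ccr2, which was not called, had a higher mean after JQ1 in line 1.2 (4.11 against 2.23 CPM). The part of myeloid cells in the result was not tested. Of 8 megakaryocyte and platelet markers, 4 had 0 reads (Pf4, Ppbp, Gp1bb and Gp9) and the sum was at most 2.73 CPM in any library, with Itga2b higher after JQ1 (1.67 ± 0.37). Itga2b was at 0.295 and 0.35 CPM in lines 1.1 and 1.2 in DMSO and passed the filter through its JQ1 libraries only, which favours a rise.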

How the data were processed

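The values deposited by the authors are unnormalised read counts, 1 whole number for each Ensembl gene and library. Per the submitters' processing notes, FastQC, cutadapt 1.7, TopHat, Bowtie2, HTSeq and limma were used with GRCm38 (mm10). The sources used here give no strand setting, annotation release or further versions. The 5 HTSeq summary lines were left out; reads on no gene were 12.3 to 14.4% and ambiguous reads 1.54 to 1.67%. Of 43629 genes, 42462 matched GENCODE M21, which gave symbols, positions and exon lengths.

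The test was run with edgeR 4.0.16 under R 4.3.3, on the 12413 genes that filterByExpr kept (minimum count 10, minimum total 15). TMM scaling, 4 group means over 8 libraries (4 residual degrees of freedom) and the quasi-likelihood F test were used, two-sided, with Benjamini-Hochberg adjustment over all genes and a threshold of 0.05. SE derive from the F statistic. CPM uses the reads of the filtered genes. The fit was tested on simulated data.

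The members and lists were chosen with earlier results of these data known, so list counts are descriptions. Named genes were the pair, every expressed gene within 2 Mb, up to 6 members per list with the smallest p, and for each member the 5 nearest profiles. Mrc1 and Fcer2a are each in 2 lists. A few named genes were left out of the text. Alternatives used DESeq2 1.42.0, limma-voom (limma 3.58.1), other scalings and filters, a replicate block, only the libraries compared, and each library left out. Replicates of a group differed by more than counting noise (chi-square per degree of freedom 1.35 to 3.99).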

Additional observations from a re-analysis of the deposited data

How the results depend on the processing

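The JQ1 effects of Thbd (-4.38 to -4.17) and Cd93 (-1.43 to -1.21), averaged over the lines, kept their direction in all 16 alternatives, and the line difference of Cd93 in DMSO passed in all 17. By line, leaving out 1 library gave -4.02 to -3.77 for Thbd in line 1.2, and -1.21 to -1.10 and -1.69 to -1.25 for Cd93 in lines 1.1 and 1.2. The Thbd line difference in DMSO passed with upper quartile scaling (0.22), library totals (0.23), limma-voom (0.22) and no filter on low counts (0.22), and ranged from 0.11 to 0.33 with 1 library left out. It passed with the replicate number as a block (0.22, edgeR adjusted p = 0.0396), the only call on the pair that the block changed. Deviations of same-numbered libraries correlated between -0.03 and 0.078 over the filtered genes. Counting noise lowers such correlations, so whether replicate numbers pair the libraries was not settled. The Thbd interaction passed with no filter (0.79) and ranged from 0.56 to 0.99 with 1 library left out, and the Thbd line difference in JQ1 from 0.78 to 1.21. The Cd93 line difference in JQ1 ranged from -0.046 to 0.39.

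List counts rest on few genes. With library totals 1 protein C gene was called in place of 0. With no filter there were 1 protein C gene, 1 clotting gene and 3 megakaryocyte markers, and with at least 5 CPM in 2 libraries 1 endothelial, 1 myeloid and 0 megakaryocyte markers. With 1 library left out, protein C and clotting genes each ranged from 0 to 1 and megakaryocyte markers from 1 to 3. Uncalled genes near 0 changed sign: Gzf1 (-0.0024 with upper quartile, -0.028 with library totals, -0.047 to 0.074 with 1 library left out), Msn (-0.017, -0.043, -0.0044 with the 5 CPM filter, and -0.031 to 0.027), and with 1 library left out Kiz (-0.12 to 0.037), Gm14131 (-0.80 to 0.29), Zfp120 (-0.084 to 0.0064), Gm21994 (-0.029 to 0.15) and Serpinc1 (-0.055 to 0.35). The cause was not tested. The 36 to 85 Thbd reads per JQ1 library limit every comparison within JQ1.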

Other observations

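Thbd has no intron in the annotation. Of 223 expressed protein-coding genes with 1 exon, 86 rose and 51 fell after JQ1 (edgeR, averaged over the lines), with a median log2 change of 0.07. Without histone genes, 67 of 203 rose and 51 fell, with a median of 0.04. Of 10055 genes with introns, 3309 rose and 3471 fell, with a median of -0.0093. These are counts with no test between the sets.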
